A study of Mus musculus with 28 samples.

Results

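The genes described here encode proteins that shorten the poly(A) tail of mRNA, remove its 5′ cap and digest the body: Edc4, Edc3, Dcp1a, Dcp2, Lsm1, Xrn1, Cnot1, Cnot7, Pan3 and Parn. They were chosen by name, and every probe set annotated to 1 of these 10 symbols alone was taken. Such probe sets existed for 9 of the 10 genes, 20 in all, out of 18193 genes with a probe set of their own on the array. Both probe sets of Cnot1, the scaffold of the CCR4-NOT deadenylase complex, were annotated to Gm6158 as well, so no value is given for it.

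In most mRNA decay, deadenylation comes first: the PAN2-PAN3 and CCR4-NOT complexes shorten the tail, and CNOT7 is a catalytic subunit of CCR4-NOT. The LSM1-7 ring then binds the shortened end, the DCP2 enzyme with its partner DCP1A and the enhancers EDC3 and EDC4 removes the cap, and the exonuclease XRN1 digests the RNA from its 5′ end. PARN is a separate poly(A)-specific ribonuclease. In the testis many mRNAs are made in spermatocytes and round spermatids, stored, and translated later, when the elongating spermatid no longer transcribes.

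RNA was measured on 28 one-colour arrays from testes of adult male C57BL/6 mice, either wild type (WT) or null for GRTH, the RNA helicase encoded by Ddx25 (KO); mice lacking it are known to be sterile, with spermatid development that stops before elongation. Each genotype gave 4 arrays of spermatocytes, 3 of round spermatids, 2 of Leydig cells and 3 of total testis polysomes. The last groups were WT testis polysomes taken through immunoprecipitation (IP) with an antibody to GRTH (2) or control IgG (2). Cells were separated by centrifugal elutriation and polysomes on sucrose gradients; the IP samples were labelled in 2 steps rather than 1. Since no label ties replicates to separate animals, the p-values cover the spread among arrays, whether technical or biological. Within a genotype, spermatocyte arrays 1 and 2, and 3 and 4, differed by an SD of 0.12 to 0.14 log2 units over genes. Other spermatocyte pairs differed by 0.19 to 0.22. Round spermatid arrays 1 and 2 differed by 0.16 to 0.17, and other pairs by 0.21 to 0.28. Whether these close arrays are independent is not known, and averaging them was an alternative.

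Signals below are linear array intensities with each array's trimmed mean set to 500. Differences are in log2(signal + 16) ± SE from limma, adjusted p-values are limma's with Benjamini-Hochberg adjustment over 9097 genes, and a gene passed at an adjusted p under 0.05. Each gene is given by its brightest probe set unless another is named. The signal of Ddx25 in KO samples was 4.87% of WT in polysomes, 20.7% in spermatocytes, 25.4% in round spermatids and 25.1% in Leydig cells, but whether its probes lie in the deleted part is not known here. The trimmed means as deposited were 500 on 24 arrays and 29.8 to 168 on WT polysome 1 and 2 and KO polysome 1 and 2. The description of 3 of those 4 arrays, and of IgG IP 1, names another group than the title; titles were followed. The cell preparations were not pure by their markers: Prm1, a protamine gene of spermatids, had a mean signal of 20600 in WT Leydig cells and 19330 in WT spermatocytes, against 42840 in WT round spermatids. In such bulk samples, fewer cells of a type and less RNA per cell cannot be told apart.

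RefSeq promoters (build GRCm38.p6) were examined for 6 of the 10 genes: Edc4, Edc3, Dcp1a, Xrn1, Pan3 and Parn. The other genes were left out, which says nothing about their promoters. Those of 3 decay factors are shown, as the 250 bases before the start. They were picked because the first pair rose in KO round spermatids and the third did not pass the main test there. Capitals mark GGGCGG (the GC box) or CCAAT on either strand. The Edc4 bases are chr8:105880631-105880880, those of Xrn1 chr9:95954510-95954759 and those of Edc3 chr9:57708319-57708568, all on the plus strand.
Edc4: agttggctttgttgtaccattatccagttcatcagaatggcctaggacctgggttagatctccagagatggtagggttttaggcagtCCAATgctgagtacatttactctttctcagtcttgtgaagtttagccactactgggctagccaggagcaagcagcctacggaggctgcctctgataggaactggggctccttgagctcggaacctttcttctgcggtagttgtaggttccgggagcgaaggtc
Xrn1: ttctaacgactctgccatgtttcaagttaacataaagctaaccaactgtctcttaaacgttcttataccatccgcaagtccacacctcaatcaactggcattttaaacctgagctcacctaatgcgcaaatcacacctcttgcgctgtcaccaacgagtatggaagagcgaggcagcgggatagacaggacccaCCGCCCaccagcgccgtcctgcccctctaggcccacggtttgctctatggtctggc
Edc3: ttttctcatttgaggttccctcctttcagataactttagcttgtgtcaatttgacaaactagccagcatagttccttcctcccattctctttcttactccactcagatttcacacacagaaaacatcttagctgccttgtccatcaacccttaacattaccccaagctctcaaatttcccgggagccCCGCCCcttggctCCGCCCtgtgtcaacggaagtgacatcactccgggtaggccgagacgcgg
Edc4 held 1 CCAAT and 0 GC boxes, Xrn1 1 GC box and Edc3 2 GC boxes. Of all 27025 RefSeq mouse promoters of this length, 32.9% held a GC box and 34.5% a CCAAT. The cAMP response element TGACGTCA was in none of the 6 promoters and in 1.62% of all. A match or its absence describes these letters only.

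Levels in the WT germ line fell into opposite patterns. By their brightest probe sets, 6 genes were lower in round spermatids than in spermatocytes. They were the decapping genes Edc4, Dcp2, Dcp1a and Edc3, the ring subunit Lsm1 and the deadenylase Cnot7. The deadenylase genes Parn and Pan3 were higher. These 8 of 9 genes passed, where 87.2% of all genes tested passed (36.2% higher and 51% lower), so the share itself does not set them apart. For 2 of the decapping genes another probe set did not fall: Dcp1a probe set 1431933_a_at rose by 1.87 ± 0.11, and the second Dcp2 probe set changed by 0.25 ± 0.11 (adjusted p = 0.0595 in a fit over all probe sets).

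Edc4, the scaffold that joins DCP1A and DCP2, had signals of 5140, 4784, 5021 and 4858 on the WT spermatocyte arrays and 865.5, 890.2 and 830.2 on the WT round spermatid arrays. The groups were far apart: round spermatids held 17.4% of the spermatocyte level (-2.50 ± 0.06, adjusted p = 2.56e-09). Dcp2, the decapping enzyme, had 446.3, 458.4, 415.4 and 415.9 in WT spermatocytes and 88.3, 98.0 and 81.0 in WT round spermatids. By this brightest probe set alone, the Dcp2 difference of -2.10 ± 0.07 (adjusted p = 1.16e-08) was close to that of Edc4. Edc3, an enhancer of decapping, fell from 826.1, 873.1, 668.6 and 746.0 to 334.2, 308.0 and 312.2 (-1.24 ± 0.09, adjusted p = 1.57e-06). The groups did not overlap, as for 85.4% of all genes.

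Cnot7 fell by 1.01 ± 0.06 on the log2 scale (adjusted p = 2.96e-07) and Lsm1 by 0.91 ± 0.09 (1.44e-05). Xrn1 was near its spermatocyte level in WT round spermatids (-0.08 ± 0.08, adjusted p = 0.360), but its second probe set, about as bright in WT spermatocytes (154.9 against 163.6), fell by 1.05 ± 0.11 (adjusted p = 2.81e-05), so no direction can be given for the gene. Parn went the other way, from 264.1, 268.1, 262.5 and 315.8 in WT spermatocytes to 660.0, 704.1 and 730.3 in WT round spermatids. Every round spermatid array exceeded every spermatocyte array, at 252% of the mean (1.29 ± 0.08, adjusted p = 3.80e-07). Its second probe set gave 1.41 ± 0.09. Pan3, the subunit that recruits the PAN2 enzyme, rose by less (0.36 ± 0.05, adjusted p = 2.03e-04).

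**Figure D1:**
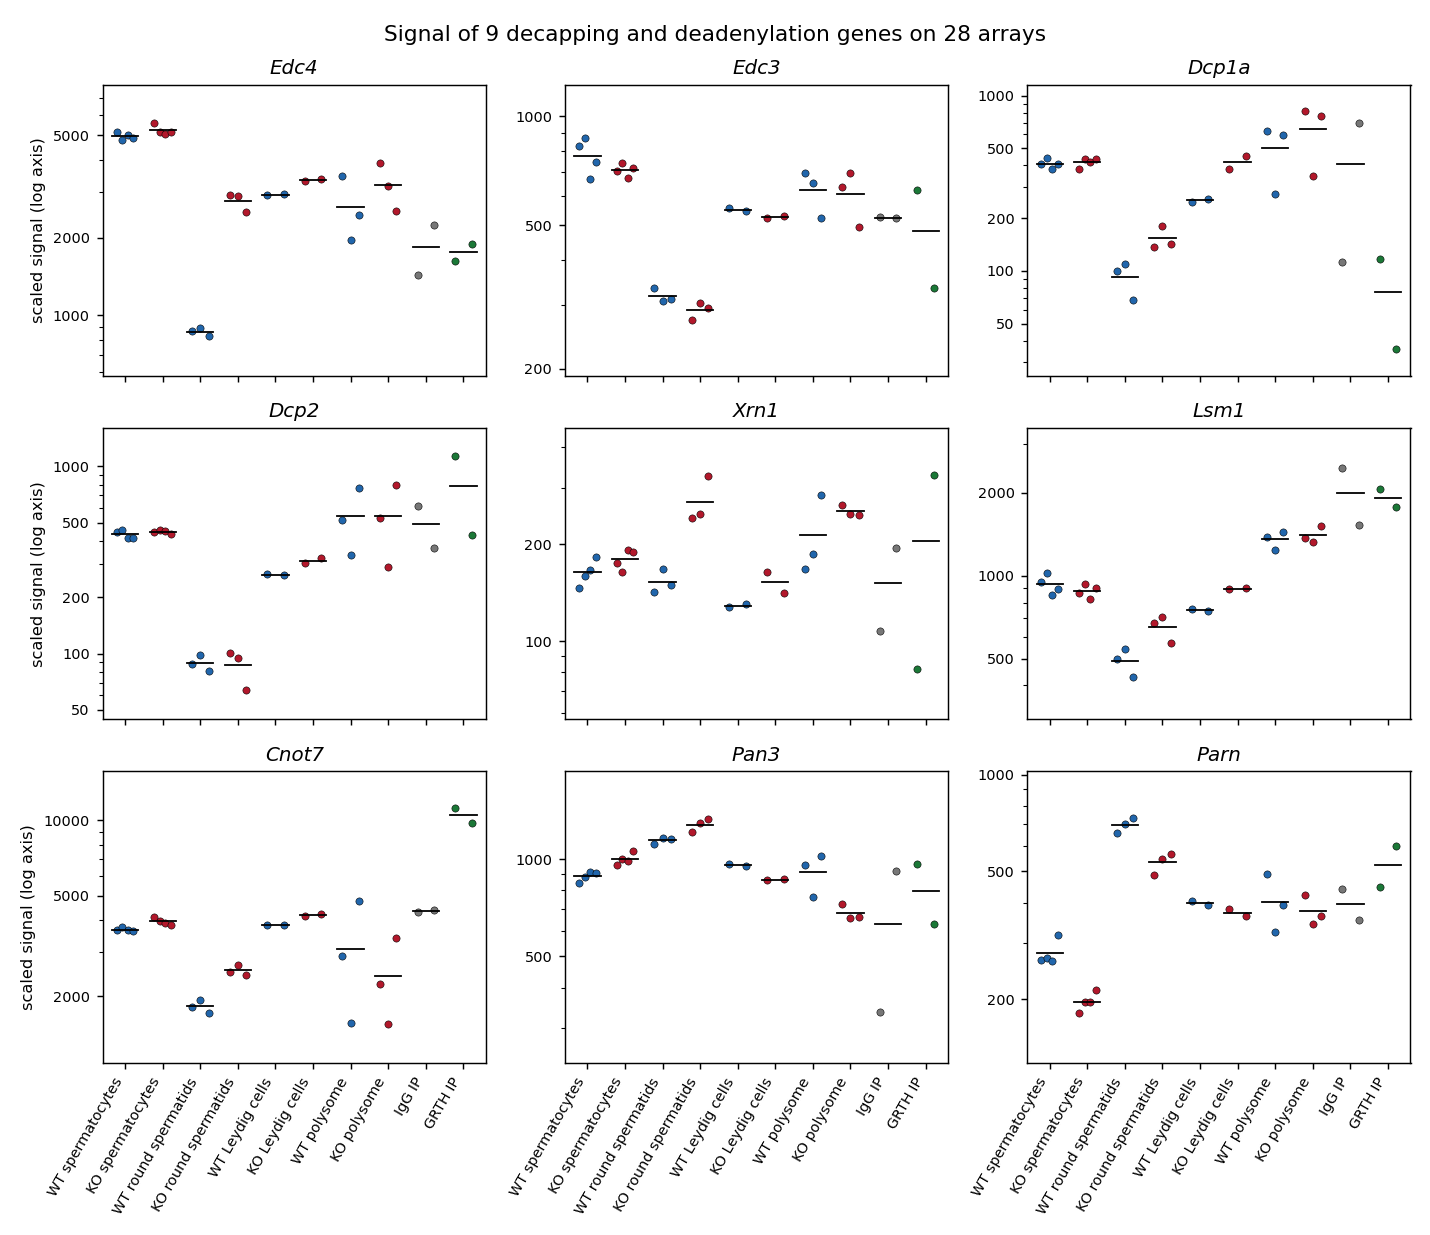
Scaled signal (log axis) of the 9 genes on each of the 28 arrays by group, with a bar at each group's mean; blue is WT, red KO, grey IgG IP and green GRTH IP. Edc4 is lowest in WT round spermatids (830.2 to 890.2), and the 3 KO round spermatid arrays lie between 2513 and 2918.

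In the absence of GRTH the round spermatid pattern differed for part of these genes. In KO round spermatids Edc4, Xrn1, Cnot7 and Lsm1 were higher than in WT, Parn was lower, and Edc3 and Pan3 did not pass. The passing genes were 5 of the 7 tested, against 63.4% of all genes tested, which leaves the share near the background; 41% of all genes were higher and 22.4% lower, and the median difference over all genes was 0.15. The brightest probe sets of Dcp1a and Dcp2 were below the filter on dim genes in this comparison and have no p in it. Their results in the fit over all probe sets are given below.

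Among the brightest probe sets of the 9 genes, that of Edc4 showed the largest difference. Dcp1a probe set 1431933_a_at, described below, differed by -1.73 ± 0.16. The KO round spermatid signals of Edc4 were 2918, 2916 and 2513, against 865.5, 890.2 and 830.2 in WT. The KO mean was 323% of WT (1.67 ± 0.08, adjusted p = 7.39e-06), and it passed under every alternative tried for this comparison. Edc4 had only 1 probe set of its own, so the result could not be compared with another probe set of the gene. The other 4 calls were lost with all 28 arrays in a single fit, in which the differences are the same and the SE is larger: the adjusted p was 0.0547 for Xrn1, 0.0518 for Lsm1, 0.189 for Cnot7 and 0.0606 for Parn. In that fit 25.6% of all genes passed. With the 24 arrays without IP, the call was lost for Cnot7 (0.143).

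Xrn1 had 241.0, 248.2 and 325.5 in KO and 142.4, 167.7 and 149.5 in WT round spermatids, 177% of WT (0.76 ± 0.12, adjusted p = 0.00119). The groups did not overlap, as for 68.6% of all genes. Its second probe set was dim in these cells, with means of 75.0 in KO and 66.9 in WT, and was not tested. Cnot7 had 2499, 2662 and 2438 in KO against 1807, 1934 and 1718 in WT (0.47 ± 0.07, adjusted p = 0.00102). Its other probe sets gave 0.45 and 0.49, so all 3 moved alike. Lsm1 had 672.5, 710.2 and 569.9 against 498.2, 541.6 and 431.0 (0.40 ± 0.11, adjusted p = 0.0164). That call was lost without KO round spermatid array 1 (adjusted p = 0.0524) or array 2 (0.0612), under quantile normalization (0.19 ± 0.12, adjusted p = 0.208), with the mean of its probe sets (0.254), with no filter on dim genes (0.0658) and with close arrays averaged (0.0650).

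Parn had 487.3, 545.4 and 566.5 in KO and 660.0, 704.1 and 730.3 in WT round spermatids (-0.38 ± 0.08, adjusted p = 0.00440). Every KO array was below every WT array. Its other probe set gave -0.28 ± 0.10 and did not pass (adjusted p = 0.0543 in a fit over all probe sets). Pan3 was at 1212, 1292 and 1334 in KO and 1114, 1163 and 1157 in WT (0.16 ± 0.07, adjusted p = 0.0715; 0.0467 with the replicate number as a block). A dimmer Pan3 probe set was lower in KO, at -0.30 ± 0.09 (adjusted p = 0.0293). Edc3 had 272.6, 303.9 and 293.7 in KO and 334.2, 308.0 and 312.2 in WT (-0.13 ± 0.07, adjusted p = 0.153). Under quantile normalization Edc3 passed as lower in KO.

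Markers of germ cell stages moved too. Of 7 spermatocyte markers, Sycp3 (2627 to 5061), Sycp1 (1926 to 3357), Piwil1 and Tex101 were higher in KO round spermatids, Ybx2 was lower, and Sycp2 and Hormad1 did not pass. Their summed signal was 32440 to 36730 in WT and 35160 to 36890 in KO. Of 7 round spermatid markers 4 were lower and 0 higher, with sums of 96370 to 115100 in WT and 67840 to 74000 in KO. Of 6 spermatogonia markers the 4 tested were all higher, and the 6 summed to 2239 to 2552 in WT and 3280 to 3569 in KO. The summed signal of 12 elongating spermatid markers, all of which were lower, was 333300 to 460600 in WT and 212400 to 267600 in KO. The part of these markers in the members' differences was not tested.

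Dcp2, below the filter on dim genes in round spermatids, had 100.9, 95.0 and 63.7 in KO and 88.3, 98.0 and 81.0 in WT. The groups overlapped (-0.05 ± 0.16, adjusted p = 0.798 in the fit over all probe sets). The second Dcp2 probe set, at means of 151.5 and 119.8, was higher in KO by 0.31 ± 0.10 (adjusted p = 0.0406), and in WT it did not fall from spermatocytes to round spermatids (0.25 ± 0.11, adjusted p = 0.0595).

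**Figure D2:**
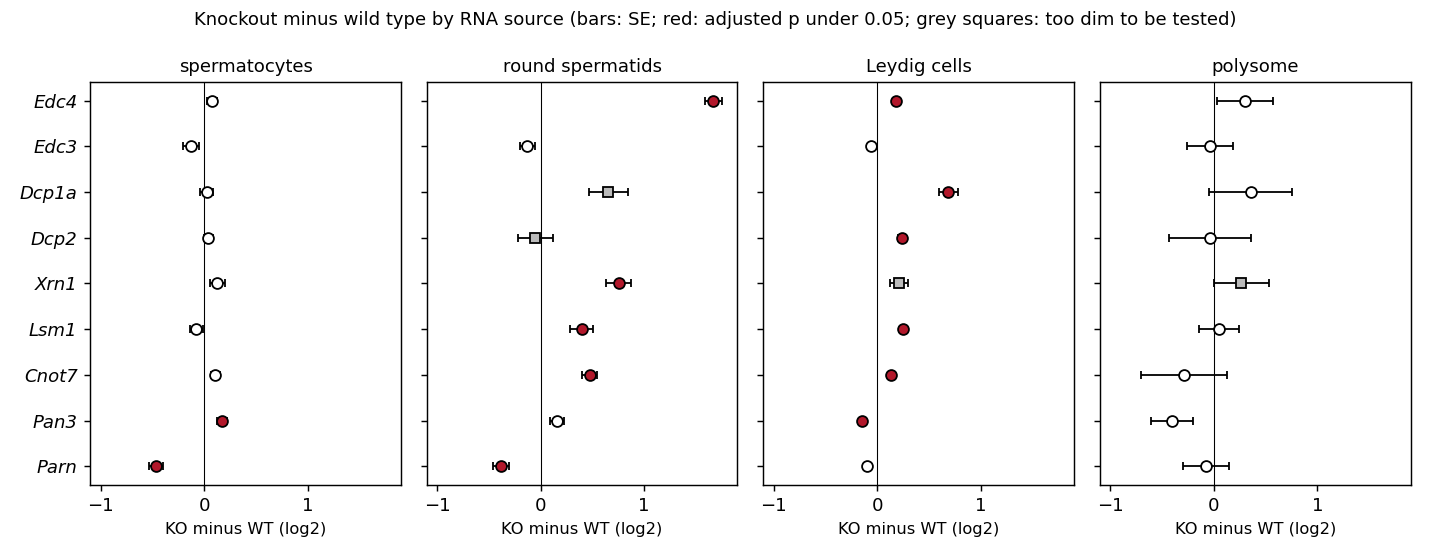
KO minus WT (log2 ± SE) of each gene in the 4 RNA sources; red points passed at an adjusted p under 0.05, open points did not, and grey squares were too dim to be tested. Edc4 in round spermatids, at 1.67, lies farthest from 0.

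Tested directly, the KO effect differed between round spermatids and spermatocytes for 5 of 9 genes, all toward higher values in round spermatids; 46% of all genes passed this test, 32.3% toward higher and 13.7% toward lower values. The difference was 1.59 ± 0.09 for Edc4 (adjusted p = 9.37e-08), 0.63 ± 0.17 for Dcp1a (0.00793), 0.63 ± 0.14 for Xrn1 (0.00278), 0.47 ± 0.13 for Lsm1 (0.00913) and 0.37 ± 0.07 for Cnot7 (0.00149). With all 28 arrays in a single fit, Edc4 was the 1 gene of the 9 that passed. The directions hold for the brightest probe sets. Dcp1a probe set 1431933_a_at went the opposite way, at -1.15 ± 0.24 (adjusted p = 0.0027 in the fit over all probe sets). The second Xrn1 probe set gave -0.05 ± 0.17 (adjusted p = 0.852). For Edc3, Dcp2, Pan3 and Parn the difference was between -0.09 and 0.08. The same values can be read as a change in the step from spermatocytes to round spermatids, which share arrays with it: Edc4 fell by 2.50 in WT and by 0.91 in KO.

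**Figure D3:**
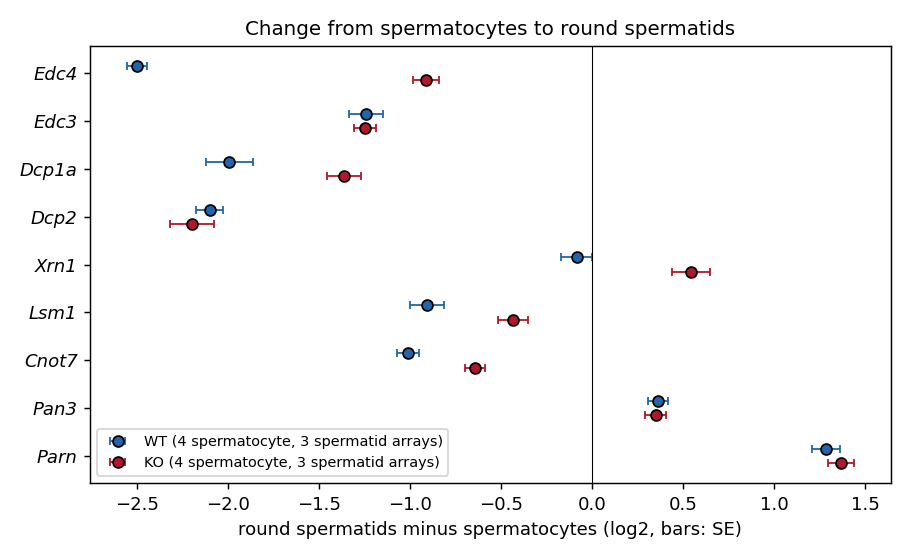
Round spermatids minus spermatocytes (log2 ± SE) for the 9 genes in WT (blue) and KO (red), 3 spermatid and 4 spermatocyte arrays each. The 2 points lie apart for Edc4 (-2.50 and -0.91) and nearly together for Pan3 (0.36 and 0.35).

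In KO the step to round spermatids changed Dcp2 by -2.20, Dcp1a by -1.36 and Edc3 by -1.25 on the log2 scale, by their brightest probe sets. In the fit over all probe sets, the second Dcp2 probe set rose by 0.50 ± 0.07 (adjusted p = 2.68e-04). Dcp1a probe set 1431933_a_at also rose, by 0.72 ± 0.20 (adjusted p = 0.0097). The other Cnot7 probe sets did not pass (-0.006 ± 0.07, adjusted p = 0.940, and -0.006 ± 0.13, adjusted p = 0.969). Xrn1 was higher in KO round spermatids than in KO spermatocytes (0.54 ± 0.11, adjusted p = 0.00109), although its second probe set fell by 1.10. By their brightest probe sets all 9 genes passed in KO, against 85.3% of all genes tested.

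In spermatocytes themselves, KO and WT differed for Pan3 and Parn only among the 9 genes tested, against 37.4% of all genes. Parn was lower on every KO array: 181.6, 195.8, 196.6 and 213.1, against 264.1, 268.1, 262.5 and 315.8 in WT. The KO mean was 70.9% of WT (-0.46 ± 0.07, adjusted p = 7.71e-04), and the other Parn probe set was also lower (-0.33 ± 0.09, adjusted p = 0.0254). Of the 7 round spermatid markers 6 were lower in KO spermatocytes, with sums of 17090 to 18660 against 24310 to 25560 in WT. All 12 elongating spermatid markers were lower too, and 4 of 5 Leydig markers were higher. Parn, with its high level in round spermatids, moved in the direction of the spermatid markers, and Pan3, also higher there in WT, did not. The part of these markers was not tested. Pan3 was slightly higher in KO, at 960.7, 997.6, 985.3 and 1059 against 845.4, 883.2, 911.1 and 907.5 (0.17 ± 0.05, adjusted p = 0.0180). The groups did not overlap, as for 38.3% of all genes, but the call was lost with arrays centred on their medians (0.12 ± 0.09, adjusted p = 0.374), with all 28 arrays in a single fit (0.941), with the 24 without IP (0.182), with no filter on dim genes (0.0692) and with close arrays averaged (0.230); with the mean of its probe sets the sign turned (-0.12). Of Cnot7 the groups also did not overlap, and it passed only with the replicate block (0.11 ± 0.04, adjusted p = 0.0636, and 0.0338 with the block) or quantile normalization (0.0418). A dimmer Cnot7 probe set was lower in KO (-0.24 ± 0.07, adjusted p = 0.0277). Edc4 had 5601, 5139, 5041 and 5160 in KO against 5140, 4784, 5021 and 4858 in WT and did not pass (0.08 ± 0.05, adjusted p = 0.224).

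Leydig cells, which make testosterone, were compared with 2 arrays a genotype. Dcp1a, Lsm1, Dcp2, Edc4 and Cnot7 were higher in KO, Pan3 was lower, and Edc3 and Parn did not pass. These are 6 of 8 genes tested, against 77.9% of all genes (38.6% higher and 39.3% lower). Arrays of 1 genotype differed by an SD of only 0.09 (WT) and 0.08 (KO) log2 units over genes, less than any pair of germ cell arrays.

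Dcp1a had 380.5 and 454.6 in KO and 248.4 and 255.9 in WT Leydig cells (0.69 ± 0.09, adjusted p = 0.00298). Edc4 had 3330 and 3368 against 2919 and 2966 (0.19 ± 0.02, adjusted p = 0.00201), Lsm1 896.3 and 899.9 against 756.0 and 747.1 (0.25 ± 0.02, adjusted p = 6.49e-04). Pan3 had 862.6 and 865.0 against 966.1 and 954.4 (-0.15 ± 0.02, adjusted p = 0.00311). These 6 calls were lost where the spread was shared over more arrays: with 24 or all 28 arrays in a single fit, 0 of the 8 genes tested passed, while the differences stayed the same and the SE grew (Dcp1a 0.69 ± 0.33, adjusted p = 0.148, with 24). Of all genes, 23.2% passed with 24 arrays and 9.24% with 28. Centring arrays on their medians moved the median of all genes from -0.01 to -0.18 and left 2 genes higher and 3 lower, with 2227 genes higher and 5336 lower in all, against 3510 and 3577. The 5 Leydig markers measured summed to 29640 to 29680 in WT and 53760 to 54560 in KO, the 6 macrophage markers to 2618 to 2666 and 6500 to 6528, and the 12 elongating spermatid markers to 193400 to 195800 and 128300 to 130700. Their part in the differences was not tested.

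In polysome RNA, none of the 8 genes tested passed, where 6.34% of all genes did; 0 of the 8 were under an unadjusted p of 0.05 in limma, as were 1748 of all 9097 genes. Edc4 had 3899, 3175 and 2536 in KO and 3488, 1968 and 2447 in WT (0.30 ± 0.27, adjusted p = 0.576). The groups overlapped, but KO was higher in each same-numbered pair. With the replicate number as a block, Edc4 still did not pass (0.30 ± 0.18, adjusted p = 0.229) and neither did the other 7 genes, while the genes passing rose from 577 to 2248 of 9097, 24.7%. Pan3 was the only gene of the 9 whose groups did not overlap, with 725.7, 656.1 and 663.3 in KO against 955.8, 765.4 and 1020 in WT, where 26.4% of all genes did not overlap. Its difference was -0.41 ± 0.20 (adjusted p = 0.314, range over the alternatives 0.00172 to 1). The low value belongs to the fit of the 24 arrays without the IP arrays. Elongating spermatid markers moved far more, from 233300 to 465600 in WT to 30310 to 57590 in KO.

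Polysome RNA bound by GRTH antibody was compared with the IgG control to see which mRNAs associate with the helicase. Here 0% of all genes passed (limma, 0 at the adjusted threshold and 364 at an unadjusted p under 0.05, none of them among the 7 genes tested). Cnot7 was at 11150 and 9751 in the GRTH IP and 4307 and 4387 in the IgG IP, 240.5% of it, without overlap. This did not pass in the main test (1.26 ± 0.58, adjusted p = 0.977; 0.00554 with all 28 arrays in a single fit). Its other probe sets gave 1.02 and 0.66. Parn was the other gene without overlap (0.38 ± 0.59, adjusted p = 0.977), where 34.1% of all genes did not overlap. Edc4 had 1628 and 1885 against 1435 and 2232. The IP arrays had an actin 3′ to 5′ ratio of 3.81 to 12.8, against 1.41 to 2.09 on all others.

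Compared with WT round spermatids, WT Leydig cells had more Edc4 (1.75 ± 0.06, adjusted p = 1.34e-05), Cnot7, Edc3 and Lsm1 and less Parn and Pan3, 6 of 6 genes tested against 80.5% of all genes. WT polysomes had more Dcp2, Dcp1a, Edc4, Lsm1 and Edc3 and less Parn, 6 of 8 against 69.5%. For Dcp1a, probe set 1431933_a_at was lower in WT polysomes (-0.86 ± 0.19, adjusted p = 0.0046 in the fit over all probe sets). Both comparisons share the WT round spermatid arrays with those above, and the polysome one rests on the rescaling of WT polysome 1 and 2.

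The 3 probe sets of Dcp1a, the activator of DCP2, disagreed. The brightest, 1433606_at, had a mean of 408.9 in WT spermatocytes and 92.3 in WT round spermatids. Its KO round spermatid signals were 137.2, 180.0 and 142.3, against 99.4, 109.0 and 68.4 in WT; tested over all probe sets the difference was 0.66 ± 0.17 (adjusted p = 0.0170). Probe set 1431933_a_at ran the opposite way. It had 135.3, 139.2, 148.6 and 164.4 in WT spermatocytes and 500.7, 567.4 and 682.6 in WT round spermatids (1.87 ± 0.11, adjusted p = 1.16e-06). In KO round spermatids it had 162.4, 195.4 and 136.2 (-1.73 ± 0.16, adjusted p = 3.09e-04). It was lower in KO in spermatocytes too (-0.58 ± 0.16, adjusted p = 0.0245) and in Leydig cells (-0.98 ± 0.07, adjusted p = 0.00123). In polysomes it had 78.1, 213.9 and 44.6 in KO and 264.6, 348.8 and 327.8 in WT (-1.58 ± 0.44, adjusted p = 0.112). The third, 1422131_at, was dim, with group means of 18.6 to 132.4. The direction given for Dcp1a thus holds for 1 probe set, and which transcripts each one detects is not known here.

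**Figure D4:**
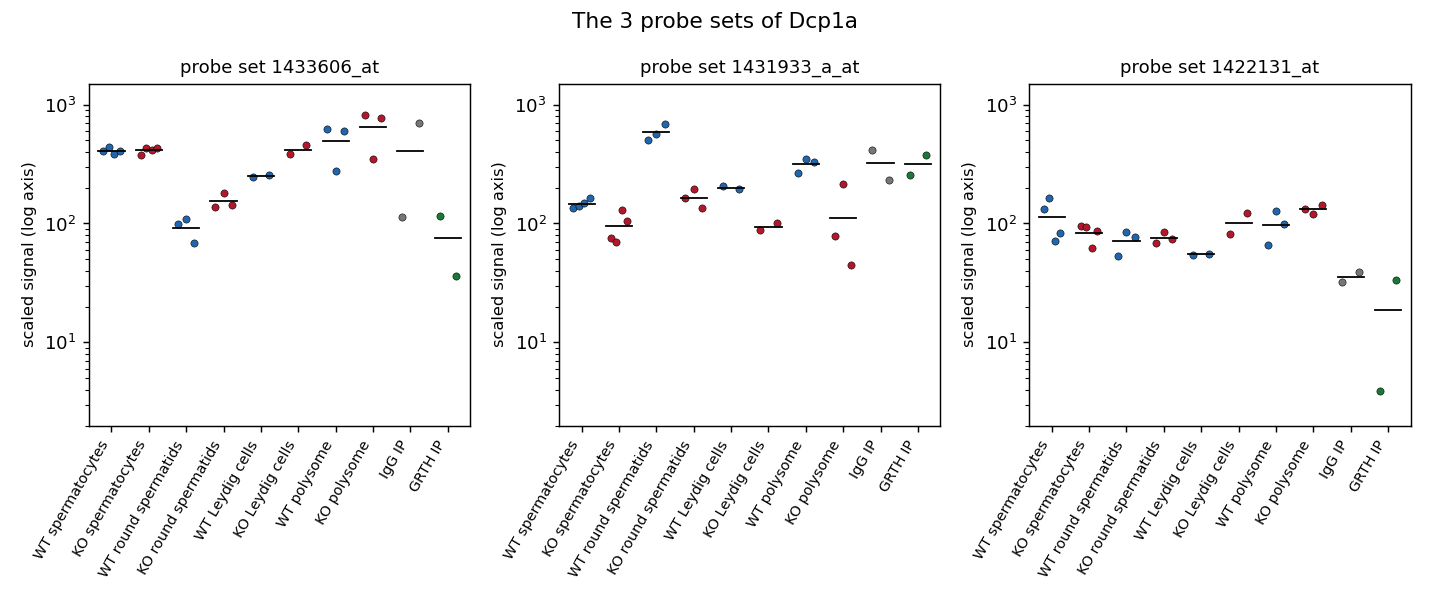
Scaled signal (log axis) of the 3 Dcp1a probe sets on each array by group, with a bar at each mean; colours are blue for WT, red for KO, grey for IgG IP and green for GRTH IP. Probe set 1431933_a_at is highest in WT round spermatids (500.7 to 682.6), where 1433606_at is low (68.4 to 109.0).

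Other genes of mRNA decay, listed by function, were read beside these. Each is given by its brightest probe set alone, and the other probe sets of these genes were not examined. The counts for round spermatids stand against 63.4% of all genes that passed there, 41% higher and 22.4% lower. Of 13 further CCR4-NOT subunits and partners tested in round spermatids, 10 were higher in KO and 2 lower, 92.3% in all, with a median of 0.50 against 0.15 over all genes. Tob2, which brings CCR4-NOT to mRNA, had means of 486.7 in KO and 220.8 in WT (1.09 ± 0.06, adjusted p = 1.39e-05), and Btg1, of the same family, 7001 and 12280 (-0.80 ± 0.11, 4.75e-04). Of 12 genes listed as other deadenylases or poly(A)-binding 8 were higher and 1 lower (75%), with Noct at 0.82 ± 0.08 and Angel1 at 0.78 ± 0.10. Of 13 further decapping genes 6 were higher and 2 lower (61.5%): Eif4enif1, which links decay to the cap-binding protein, rose by 0.60 ± 0.07, and Lsm2 fell by 0.68 ± 0.08.

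Of 14 exosome and Ski genes, which act from the 3′ end, 6 were higher and 3 lower (64.3%), among them the nuclease Dis3 at -0.57 ± 0.07. Of 11 genes that recruit or block decay factors 7 were higher and 1 lower (72.7%), with the mRNA stabiliser Elavl1 at 1.45 ± 0.10. Of 7 nonsense-mediated decay genes 3 were higher and 0 lower (42.9%), with Smg8 at 1.30 ± 0.06; under quantile normalization this list gave 2 higher and 2 lower. Apart from CCR4-NOT, these shares lie near or below that of all genes. In the other 5 lists more genes were higher than lower under both other scalings.

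In spermatocytes, where 37.4% of all genes passed, the same lists gave 6 higher and 1 lower of 13 CCR4-NOT genes. They gave 5 and 3 of 14 decapping genes, and 2 and 0 of 12 genes of the deadenylase and poly(A)-binding list. The counts were 1 and 3 of 14 exosome genes, 4 and 1 of 11 recruiters and 1 and 2 of 7 nonsense-mediated decay genes. Centring arrays on their medians left 1 CCR4-NOT gene higher and 1 lower, and 0 decapping genes higher and 2 lower. In polysomes 1 gene of all these lists passed: Samd4, an RNA-binding repressor of translation, at 2921 in KO and 6505 in WT (-1.15 ± 0.24, adjusted p = 0.0205). In Leydig cells, where 77.9% of all genes passed, 10 CCR4-NOT genes were higher and 3 lower, or 5 and 5 with centred arrays. There 7 decapping genes were higher and 4 lower, and 4 and 5 of the deadenylase and poly(A)-binding list. The counts were 6 and 6 for exosome genes, 6 and 1 for recruiters and 1 and 5 for nonsense-mediated decay genes.

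Over the 28 arrays the 9 genes did not share a single pattern. The most alike pair was Dcp2 and Lsm1 (Pearson r 0.82) and the least alike Edc4 and Parn (-0.82). Among other genes, Edc4 was most like Srrm1 (0.96), Dcp2 like Gemin2 (0.97), Lsm1 like Polr2j (0.97), Parn like Slc66a2 (0.94), Edc3 like Arfgap2 (0.94), Dcp1a like Traf2 (0.95), Cnot7 like Tmed5 (0.94), Pan3 like Lmbr1 (0.87) and Xrn1 like Chd4 (0.84). These are descriptions over arrays that share cell types and labelling.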

How the data were processed

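Per the submitters' processing notes, the authors made the deposited linear intensity values with GCOS (Affymetrix); the software's version is not given. Because 4 arrays had not been scaled like the rest, every array was set to a mean of 500, computed after trimming a fraction of 0.02 from both ends. The number of arrays per group limits the precision.

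Of 45101 probe sets, 34945 had 1 gene symbol, 932 several and 9160 none; 64 controls were left out. The Entrez identifiers of 34741 were found in RefSeq, which changed 0 symbols. Each gene was represented by its brightest probe set; genes at or above the median of a comparison's arrays were tested with limma 3.58.1 (R 4.3.3) on log2(signal + 16), fitting only the groups compared. Other probe sets came from the same fit over all probe sets. Figures used matplotlib. The scripts were tested on simulated data.

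The genes and lists were chosen with earlier results of these data known. Named genes are all members, up to 3 per other list and KO comparison with the smallest adjusted p, and each member's most alike gene over the arrays. The replicate number was used as a block, as an alternative, in every comparison. Same-numbered arrays deviated together (r 0.14 to 0.67 in every pair) between KO and WT polysomes and in the germ cell comparisons. In the IP r was 0.43. It was 0.03 between KO and WT Leydig cells. Against WT round spermatids it was -0.04 to 0.02 for WT Leydig cells and -0.07 to -0.03 for WT polysomes. Alternatives covered the offset, filter, scaling, probe set rule, arrays fitted, replicate block and leaving out arrays.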

Additional observations from a re-analysis of the deposited data

Results flagged for a closer look

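Single arrays stood apart for 2 genes within WT spermatocytes. Array 2 had a Cnot7 signal of 3781 against 3626 to 3649 on the others, a gap of 0.848 of the group's range, and array 4 had a Parn signal of 315.8 against 262.5 to 268.1, a gap of 0.886. Both are above the limit of Dixon's test for groups of 4, which chance passes in about 1 in 20 groups. The test was run for each of the 9 genes in WT and in KO spermatocytes, so such a gap can arise by chance alone.

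The KO effect differed between round spermatids and spermatocytes, by the test of the difference itself, for Edc4 (1.59), Dcp1a (0.63), Xrn1 (0.63), Lsm1 (0.47) and Cnot7 (0.37), each more positive in round spermatids. For Dcp1a this holds for its brightest probe set, while probe set 1431933_a_at gave -1.15. The second Xrn1 probe set gave -0.05.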

How the results depend on the processing

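Counts are members that passed, with the value as reported first. KO against WT spermatocytes gave 2, and 1 with no filter on dim genes, a stricter filter, median-centred arrays, close arrays averaged, all 28 arrays, or the 24 arrays without IP, a fit chosen after seeing the data. With the mean of a gene's probe sets, 1 member was higher and 2 lower there, and only 1 of these calls was among those reported. KO against WT round spermatids gave 5, and 1 with all 28 arrays. With close arrays averaged, the share of all genes passing fell from 37.4% to 13.5% in spermatocytes and from 63.4% to 48.1% in round spermatids. Leydig cells gave 6, then 3 with the mean of a gene's probe sets, and 0 with 28 or 24 arrays. The IP gave 0, and 1 with 28 arrays; polysomes gave 0, and 1 with 24. KO round spermatids against KO spermatocytes gave 9, and 5 with the stricter filter, which tests fewer genes. WT polysomes against WT round spermatids gave 6, and 0 on the deposited scale. The difference of KO effects gave 5, then 3 with the stricter filter, 3 with the mean of probe sets, 3 with 24 arrays, 2 with close arrays averaged and 1 with 28. Except for the stricter filter, the cause was not tested.

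Signs turned for Dcp1a (-0.29) and Pan3 (-0.12) in spermatocytes, Xrn1 (-0.28) in KO round spermatids against KO spermatocytes and Dcp1a (-0.041) in the difference of KO effects, all with the mean of probe sets. In Leydig cells they turned for Cnot7 (-0.045, median-centred) and Dcp2 (-0.023, quantile normalization). On the deposited scale they turned for Edc4 (-0.0014), Edc3 (-0.56) and Lsm1 (-0.091) in WT polysomes against WT round spermatids.

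Leaving out 1 array gave 4 to 5 in round spermatids, 6 to 7 in Leydig cells, 5 to 6 in WT Leydig cells against WT round spermatids, 4 to 7 in WT polysomes against WT round spermatids, and the reported count elsewhere. With WT polysome array 2 left out, Cnot7 passed in that last comparison (1.02, adjusted p = 0.00407). The replicate block changed 3 calls, all gained: Cnot7 in spermatocytes (0.0338), Pan3 in round spermatids (0.0467) and Parn in Leydig cells (0.0348). Median centring changed the split of all genes called in spermatocytes from 1781 higher and 1623 lower to 730 and 1418, and in WT polysomes against WT round spermatids from 3496 and 2828 to 2380 and 4029. Values near the median signal, such as Dcp1a, Dcp2 and Xrn1, are the least certain.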
